A study of Mus musculus with 13 samples.

Results

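The genes described here encode telomerase and the proteins that cap chromosome ends. They are Tert, the reverse transcriptase of telomerase, Dkc1, whose product dyskerin binds and stabilizes the telomerase RNA, and the genes of shelterin, namely Terf1, Terf2, Tinf2, Pot1a, Pot1b, Acd and Terf2ip. They were chosen by name, with earlier results of these data known, and all 9 were found among the 55487 genes of the deposited count tables. Poly-A RNA sequencing of mouse embryonic fibroblasts (MEFs) gave 13 libraries. The wild-type (WT) libraries comprised 3 primary cultures (clones 3, 4 and 5) and the 3 spontaneously immortalized lines grown from them, and the libraries labelled Prkd3-/- comprised 3 primary cultures (clones 13, 14 and 15) and 4 immortalized lines (13, 13a, 14 and 15). Primary cultures were grown in medium with 10% fetal calf serum. To obtain lines, they were passaged serially by a modified 3T3 protocol, with serum raised to 20% once they became senescent, and lines arose from growing colonies. As described for WT, the lines were then returned to 10% serum for expansion, and the primary samples were collected before immortalization. No transgene or immortalizing agent is described. The strain, the age of the embryos and the Prkd3 allele are not given in the sources used here. Lines 13 and 13a carry the same clone number, and neither a passage number nor a telomere length is given for any library.

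Telomerase copies a template in its own RNA, encoded by Terc, onto chromosome ends, and its activity needs both that RNA and the Tert protein. Shelterin binds the double-stranded telomere repeat through Terf1 and Terf2 and the single-stranded overhang through Pot1, and Tinf2 and Acd join these parts together. Mouse cells carry a pair of Pot1 genes, Pot1a and Pot1b, where human cells have a single one. Laboratory mice have long telomeres, and cultured mouse fibroblasts, unlike most human ones, keep some telomerase, so MEFs can overcome senescence without switching Tert on.

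On GRCm38, Tert (ENSMUSG00000021611) lies on the forward strand at chr13:73626911-73649843 and Dkc1 (ENSMUSG00000031403) on the forward strand at chrX:75095854-75109777. Terf1 lies at chr1:15805646-15844052, Tinf2 at chr14:55674689-55681820, Pot1a at chr6:25743737-25809246 and Pot1b at chr17:55651951-55712628. Chromosome 8 holds Acd at chr8:105695860-105701102, Terf2 at chr8:107069400-107096547 and Terf2ip at chr8:112011398-112020528, so that 3 of the 9 genes share a chromosome. Because Tert was the gene that stood lower in every immortalized line, and Dkc1 the gene with the largest coefficient of variation among the Prkd3-/- lines, the 250 bases before the annotated start of each are given here from RefSeq (GRCm38.p6), 5′ to 3′ on the strand of the gene, at chr13:73626661-73626910 and chrX:75095604-75095853. Capitals mark each GC box, searched as GGGCGG on both strands.
Tert: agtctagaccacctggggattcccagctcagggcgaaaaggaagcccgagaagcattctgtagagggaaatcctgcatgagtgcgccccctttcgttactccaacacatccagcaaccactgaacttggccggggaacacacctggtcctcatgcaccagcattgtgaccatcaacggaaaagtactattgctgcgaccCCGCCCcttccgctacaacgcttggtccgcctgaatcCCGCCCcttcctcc
Dkc1: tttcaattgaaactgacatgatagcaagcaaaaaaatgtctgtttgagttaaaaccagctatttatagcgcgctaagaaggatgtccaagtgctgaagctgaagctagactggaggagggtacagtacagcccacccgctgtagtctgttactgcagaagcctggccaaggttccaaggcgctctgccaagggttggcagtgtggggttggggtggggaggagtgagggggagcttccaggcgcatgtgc
The Tert window held 2 GC boxes, 51 and 14 bases before the start, and the Dkc1 window held none. RefSeq windows were found for 8 of the 9 genes, and of these Pot1a and Pot1b held 1 GC box each while Dkc1, Terf2, Tinf2, Acd and Terf2ip held none. A GC box occurred in 32.7% of all promoter windows of that length, so its presence does not set these genes apart. The E-box CACGTG, found in 6.02% of all windows, was in none of the 8. A match of letters is a description and not a binding site.

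Library totals, the counts summed over all genes, ranged from 35273408 to 100441756. In the WT libraries a read pair was counted for every gene it overlapped. Prkd3, a protein kinase gene, was counted at 69.2 to 93.7 CPM (read pairs scaled to a common library total) in the WT libraries and at 33.6 to 61.0 CPM in those labelled Prkd3-/-, lower without overlap but not absent, and these libraries are called Prkd3-/- as labelled. The primary libraries also held macrophage RNA. The summed level of 10 macrophage genes was 1399 to 1440 CPM in WT primary and 56.9 to 145.8 CPM in WT immortalized libraries, and it ranged from 155.4 to 1924 CPM among the Prkd3-/- primary libraries, with clone 14 highest, and from 14.4 to 318.3 CPM among the Prkd3-/- lines, where line 13 had 5 of the 10 genes at 0. The 10 fibroblast genes summed to 30899 CPM or more in every library. In such bulk samples fewer cells of a type and less RNA per cell cannot be told apart.

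To find where the 9 genes stood before immortalization, their levels were compared per length, as CPM per kilobase of exons. In WT primary MEFs, Dkc1 was highest at 6.10 ± 0.221 (SD, n = 3) CPM per kb, followed by Acd at 6.02 ± 0.178, and the ranges of these genes overlapped. Terf2 followed at 5.31, Tinf2 at 4.86, Terf2ip at 3.42, Terf1 at 2.03 and Pot1a at 1.34 CPM per kb, each above the next without overlap. Tert, at 1.00 ± 0.0816 CPM per kb, and Pot1b, at 0.915 ± 0.0520, were lowest and overlapped. In Prkd3-/- primary MEFs both were lowest too, Tert at 0.840 and Pot1b at 0.791 CPM per kb, again with overlap. In the immortalized lines Tert was the lowest of the 9 in both genotypes, at 0.511 ± 0.137 CPM per kb in WT and 0.349 ± 0.271 (n = 4) in Prkd3-/- lines, below Pot1b at 0.787 and 1.00 CPM per kb, and the ranges of both genes did not overlap in either genotype. At the top, the Dkc1 mean in Prkd3-/- lines was 14.5 ± 11.8 CPM per kb, a spread so wide that it overlapped Acd at 8.05. In WT lines Acd was highest at 7.22 CPM per kb and overlapped Dkc1 at 6.72, which overlapped Terf2 at 6.02.

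**Figure D1:**
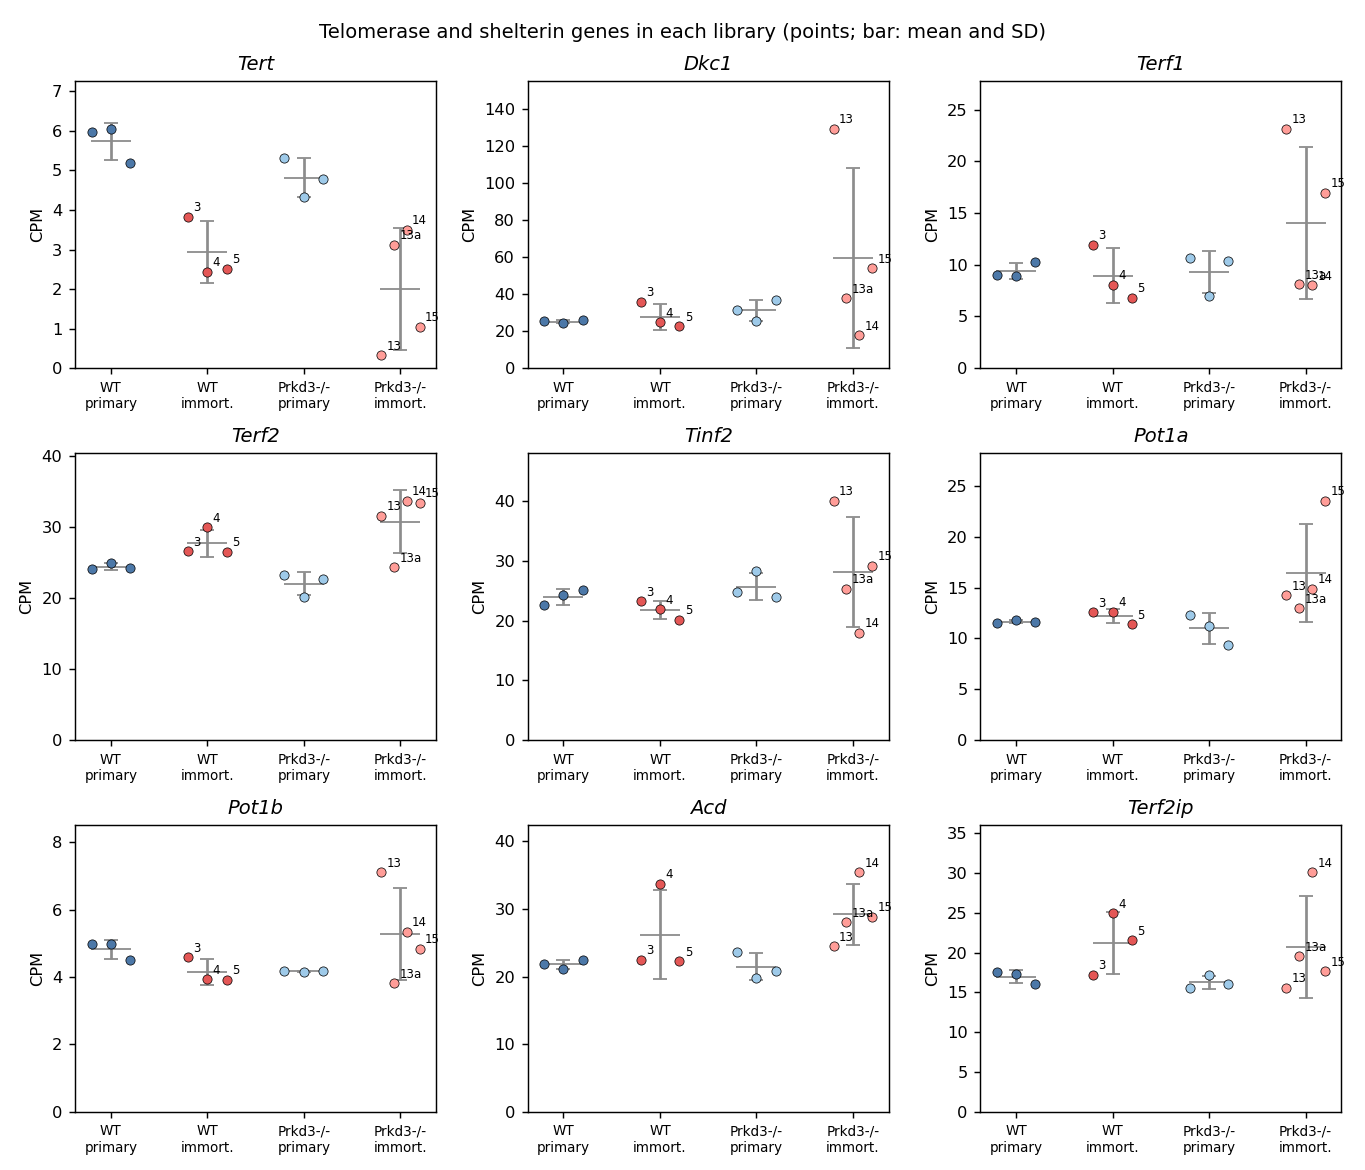
Level of each gene in CPM (vertical axis, from 0, a scale of its own in each panel) in the 13 libraries, grouped by genotype and state; points are libraries, with line names beside the immortalized ones, and grey bars are the mean and SD. Every immortalized point of Tert lies under the primary points of its genotype, while line 13 stands high for Dkc1 (129.2 CPM) and Terf1 (23.2 CPM).

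Tert was the member that stood lower in every immortalized line. In WT primary clones 3, 4 and 5 it was measured at 5.96, 6.05 and 5.20 CPM, and in the immortalized lines 3, 4 and 5 at 3.83, 2.44 and 2.52 CPM. The groups did not overlap. The means were 5.74 ± 0.468 and 2.93 ± 0.785 CPM (SD, n = 3 each), a Log2FC of -0.97 (standard error 0.22, 95% confidence interval -1.52 to -0.42), or 1.96-fold lower. This difference did not pass the test over all genes (edgeR quasi-likelihood adjusted p = 0.073). The adjusted p depended on the tool and on line 3, the highest of the 3 lines. DESeq2 gave 0.00217 and edgeR scaled by library size alone 0.0413, and without line 3 edgeR gave 0.0105 at a Log2FC of -1.21, while the other alternatives gave 0.072 to 0.717. These settings also put more of all genes under an adjusted p of 0.05, with 10.8% by DESeq2, 5.88% with library size alone and 12.2% without line 3, against 5.27% in the edgeR fit of all 6 WT libraries.

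In the Prkd3-/- libraries Tert again lay lower in every line, by very different amounts. The primary clones 13, 14 and 15 gave 5.32, 4.33 and 4.80 CPM, and lines 13, 13a, 14 and 15 gave 0.324, 3.12, 3.50 and 1.05 CPM. The groups did not overlap, and lines 13 and 15 lay furthest below. Against the primary mean of 4.82 CPM, Tert was 14.8-fold lower in line 13 and 4.58-fold lower in line 15, and 1.54-fold and 1.38-fold lower in lines 13a and 14. Line 13 held 17 Tert read pairs and line 13a, of the same clone number, 228, and as single libraries they have no replicate check of their difference. The Log2FC was -1.27 (standard error 0.73, 95% confidence interval -2.97 to 0.44, edgeR adjusted p = 0.829), and it ranged from -0.91 without line 13 to -1.68 without line 14. Over all 13 libraries the state effects of both genotypes averaged to a Log2FC of -1.12 (95% confidence interval -2.06 to -0.17). This did not pass either (edgeR adjusted p = 0.205), where 3.25% of all genes tested passed 0.05. In the same averaged fit Terf2 had a Log2FC of 0.33 (95% confidence interval 0.11 to 0.55, edgeR adjusted p = 0.11). Acd had 0.35 (0.07 to 0.64, edgeR adjusted p = 0.187), so both had a lower adjusted p than Tert. No member passed 0.05 in it, and this averaged test was chosen after the data had been seen.

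Of 19311 genes tested in both genotypes, 2.71% had every immortalized library below every primary library of the same genotype, and Tert was the single one of the 9 that did. The sum of macrophage genes was also lower in every WT line than in the WT primary libraries, and so were those of epithelial (2.36 to 2.72 CPM before, 0.177 to 0.542 after), endothelial (11.6 to 16.4, then 0.371 to 1.97), neural crest (3.11 to 3.77, then 0.451 to 2.89), muscle (54.2 to 56.8, then 6.27 to 40.5) and pluripotent or germ cell genes (1.43 to 1.71, then 0.406 to 0.61). Their part in the WT Tert difference was not tested. In Prkd3-/- the primary and immortalized ranges of each of these sums overlapped. Among the Prkd3-/- primary libraries Tert was at 5.32, 4.33 and 4.80 CPM in clones 13, 14 and 15. The macrophage genes of these clones summed to 155.4, 1924 and 369.8 CPM. Their proliferation marker genes summed to 1033, 478.6 and 921.1 CPM, so both sums differed among the same 3 libraries. The part of either in the Prkd3-/- Tert levels was not tested. Proliferation differed among the lines as well. Its 10 marker genes summed to 772.5, 544.4 and 239.0 CPM in WT lines 3, 4 and 5, where Tert was at 3.83, 2.44 and 2.52 CPM. In Prkd3-/- lines 13, 13a, 14 and 15 they summed to 2536, 592.8, 667.1 and 1231 CPM. Tert was at 0.324, 3.12, 3.50 and 1.05 CPM in these lines. The part of proliferation in the Tert level was not tested.

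Dkc1 did not pass in either genotype. Its coefficient of variation among the Prkd3-/- lines, 81.5%, was the largest of the 9 genes, followed by that of Tert at 77.6%. In WT primary clones 3, 4 and 5 it was measured at 25.3, 24.2 and 26.01 CPM and in the immortalized lines 3, 4 and 5 at 35.8, 24.8 and 22.5 CPM, so that the groups overlapped (Log2FC 0.14, standard error 0.19, edgeR adjusted p = 0.732). The primary clones 13, 14 and 15 gave 31.5, 25.6 and 36.9 CPM, and lines 13, 13a, 14 and 15 gave 129.2, 37.8, 17.8 and 53.9 CPM. Line 13 was 4.12-fold above and line 14 was 1.76-fold below the primary mean, and the Log2FC of 0.91 had a standard error of 0.60 (edgeR adjusted p = 0.843). Without line 13 it was 0.22 (edgeR adjusted p = 0.884). Line 13 thus combined the lowest Tert level and the highest Dkc1 level of all 13 libraries. It also had the highest sum of proliferation genes, and the part of proliferation in the Dkc1 level was not tested. Besides telomerase, dyskerin serves ribosomal RNA modification in small nucleolar ribonucleoproteins.

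**Figure D2:**
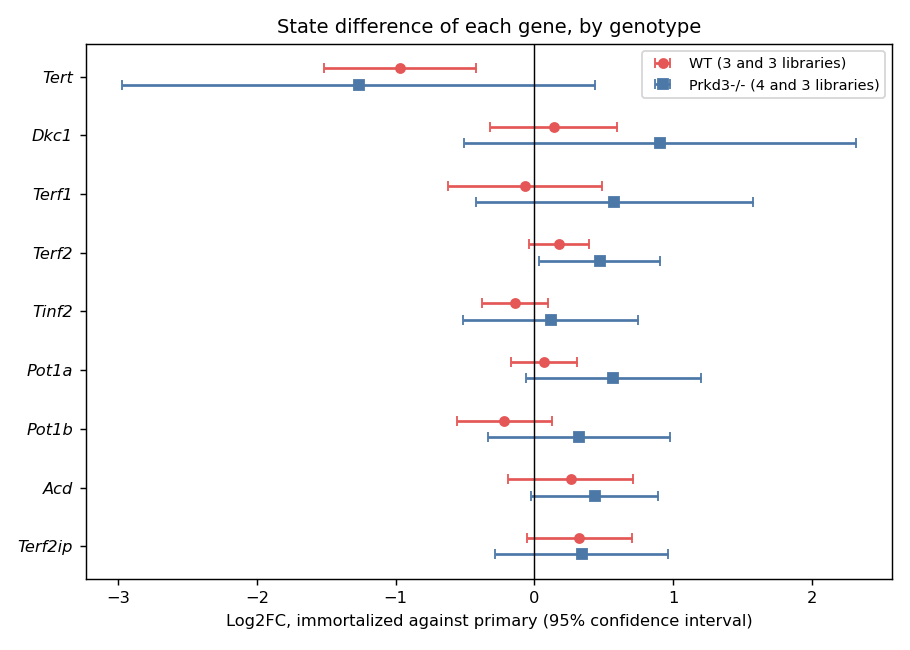
Log2FC of immortalized against primary libraries (horizontal axis) for the 9 genes, with 95% confidence intervals from the edgeR fits; circles are WT and squares Prkd3-/-. The WT interval of Tert, -1.52 to -0.42, lies below 0 and the Prkd3-/- interval of Terf2 lies above 0, and no gene passed the test adjusted over all genes.

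The question whether shelterin changed with immortalization was asked next. None of its 7 genes passed in either genotype, and no member passed the thresholds of adjusted p under 0.01 and |Log2FC| of at least 1, where 1.82% of all WT genes and 0.0% of all Prkd3-/- genes did. At an adjusted p under 0.05 the count was also 0 of 9 by edgeR in each genotype, against 5.27% and 0.0% of all genes. At an unadjusted p under 0.05 there was 1 of 9 in each, Tert in WT and Terf2 in Prkd3-/-, against 19.7% and 6.56% of all genes, and DESeq2 put 1 of 9, Tert, under an adjusted p of 0.05 in WT. Among WT libraries 1 of 9 genes was lower without overlap (Tert) and 1 of 9 higher (Terf2), against 17.4% and 13.9% of all genes. Among Prkd3-/- libraries 1 of 9 was lower without overlap and 3 of 9 were higher (Terf2, Pot1a and Acd), against 5.26% and 4.19% of all genes. The median Log2FC over the 9 genes was 0.07 in WT, beside 0.04 over all genes tested, and 0.43 in Prkd3-/-, beside 0.07.

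Terf2, which binds double-stranded telomeric DNA and keeps chromosome ends from being read as breaks, was the single member that lay higher without overlap in both genotypes. Of all genes tested 13.9% did so in WT and 4.19% in Prkd3-/-. The share that did so in both was not counted, so how common this pattern is among all genes cannot be said. In WT it was measured at 24.1, 24.9 and 24.2 CPM in primary clones 3, 4 and 5 and at 26.6, 29.9 and 26.5 CPM in the corresponding lines, without overlap (Log2FC 0.18, standard error 0.09, edgeR adjusted p = 0.333). In Prkd3-/- it was measured at 23.2, 20.2 and 22.6 CPM in primary clones 13, 14 and 15 and at 31.5, 24.3, 33.7 and 33.4 CPM in lines 13, 13a, 14 and 15, again without overlap. That difference had a Log2FC of 0.47 (standard error 0.19, 95% confidence interval 0.04 to 0.91) and an edgeR adjusted p of 0.73. For Terf1, which encodes the other double-strand binding protein, the primary and immortalized groups overlapped in both genotypes. Its WT levels were 9.0, 8.87 and 10.2 CPM in primary and 11.9, 8.07 and 6.82 CPM in immortalized libraries, with a Log2FC of -0.07 and overlapping groups. Its Prkd3-/- levels were 10.6, 6.95 and 10.4 CPM in clones 13, 14 and 15 and 23.2, 8.11, 8.05 and 17.0 CPM in lines 13, 13a, 14 and 15, so that lines 13 and 15 lay above every primary library and the other lines within their range (Log2FC 0.58, standard error 0.43, edgeR adjusted p = 0.846; 0.24 without line 13).

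The Pot1 proteins bind the single-stranded overhang. Pot1a in WT primary clones was measured at 11.5, 11.8 and 11.6 CPM and in the lines at 12.6, 12.6 and 11.4 CPM, which overlapped. In Prkd3-/- clones 13, 14 and 15 it was at 12.3, 11.2 and 9.34 CPM, and in lines 13, 13a, 14 and 15 at 14.2, 12.97, 14.9 and 23.6 CPM, without overlap (Log2FC 0.57, standard error 0.27, edgeR adjusted p = 0.788). Line 15 was highest, 2.15-fold above the primary mean, and without it the Log2FC was 0.35. Pot1b was at 4.98, 4.97 and 4.50 CPM in WT primary and 4.59, 3.93 and 3.92 CPM in WT immortalized libraries, which overlapped (Log2FC -0.22, standard error 0.14, edgeR adjusted p = 0.456). It lay between 4.14 and 4.18 CPM in the 3 Prkd3-/- primary clones and between 3.81 CPM (line 13a) and 7.10 CPM (line 13) in the lines. In mice Pot1a is the protein best known for holding back the damage response at telomeres, and Pot1b for limiting the trimming of the end.

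Tinf2, the hub that ties Terf1 and Terf2 to Acd, lay between 22.6 and 25.2 CPM in WT primary and between 20.1 and 23.2 CPM in WT immortalized libraries. Its Prkd3-/- levels were 23.9 to 28.3 CPM in primary libraries and 40.1, 25.4, 18.0 and 29.2 CPM in lines 13, 13a, 14 and 15, and the direction of its Log2FC of 0.12 turned without line 13, to -0.09. Acd, whose product TPP1 carries Pot1 and recruits telomerase to the end, lay between 21.2 and 22.5 CPM in WT primary libraries and at 22.5, 33.8 and 22.3 CPM in lines 3, 4 and 5, so that 1 line stood apart, and the Log2FC of 0.26 was 0.04 without it. In Prkd3-/- it was at 23.7, 19.8 and 20.9 CPM in clones 13, 14 and 15 and at 24.5, 28.05, 35.4 and 28.8 CPM in lines 13, 13a, 14 and 15, without overlap (Log2FC 0.43, standard error 0.20, edgeR adjusted p = 0.779). Terf2ip, which encodes the Terf2 partner Rap1, was at 17.6, 17.2 and 16.0 CPM in WT primary libraries and 17.2, 25.0 and 21.6 CPM in the WT lines (Log2FC 0.33, edgeR adjusted p = 0.319). In Prkd3-/- it ranged from 15.6 to 17.2 CPM before and was 15.6, 19.5, 30.1 and 17.7 CPM in lines 13, 13a, 14 and 15, with line 14 the highest of all libraries (Log2FC 0.34, and 0.10 without line 14).

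Counts of Tinf2 and Acd are shared with neighbours. The WT table was counted without strand and a read pair was given to every gene it overlapped. Exons of Gmpr2, on the opposite strand, cover 31.2% of the exon bases of Tinf2, and Gmpr2 was itself at 23.2 CPM on average. Carmil2, also opposite, covers 33.3% of the exon bases of Acd but was at 1.04 CPM on average. Mpp1 covers 1.09% of those of Dkc1, and no annotated exon overlaps those of the other 6 genes. Pot1a and Pot1b, and likewise Terf1 and Terf2, share no stretch of 100 bases, the read length, so reads of these paralogs can be told apart.

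**Figure D3:**
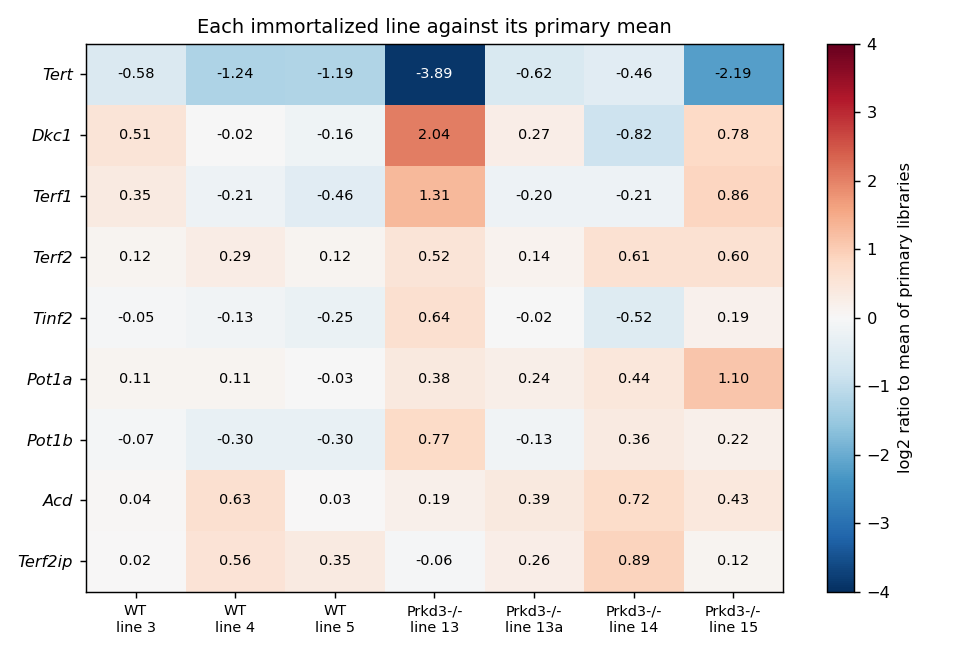
Log2 ratio of each immortalized line (columns) to the mean of the primary libraries of its genotype, for the 9 genes (rows); red is higher, blue lower, and each cell gives its value. The Tert row is negative in all 7 lines, from -0.46 in line 14 to -3.89 in line 13, and the other rows of the WT lines range from -0.46 (Terf1 in line 5) to 0.63 (Acd in line 4).

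Since a ratio within a library does not depend on library scaling, the paralogs were also compared directly, per length. The Pot1b to Pot1a ratio was 0.712, 0.695 and 0.641 in WT primary clones and 0.603, 0.514 and 0.567 in the WT lines, without overlap. In Prkd3-/- libraries it was 0.559, 0.607 and 0.739 in clones 13, 14 and 15 and 0.822, 0.484, 0.592 and 0.339 in lines 13, 13a, 14 and 15, which overlapped. Over both genotypes the mean difference was -0.26 on the log2 scale (exact two-sided permutation test within genotypes over 700 labelings, p = 0.136, adjusted over the 2 ratios 0.271, smallest p possible 0.00143), and within WT it was -0.28 and within Prkd3-/- -0.25. Line 13 went the other way, and without it the difference was -0.37 with an exact p of 0.010, while with lines 13 and 13a averaged it was -0.31 with an exact p of 0.035. Without line 15, the lowest, it was -0.16 with an exact p of 0.255. The Terf1 to Terf2 ratio was 0.384 ± 0.0351 in WT primary and 0.325 ± 0.107 in WT immortalized libraries (SD, n = 3 each), and 0.420 ± 0.0658 (n = 3) and 0.453 ± 0.217 (n = 4) in Prkd3-/- (mean log2 difference -0.14, exact permutation p = 0.566).

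**Figure D4:**
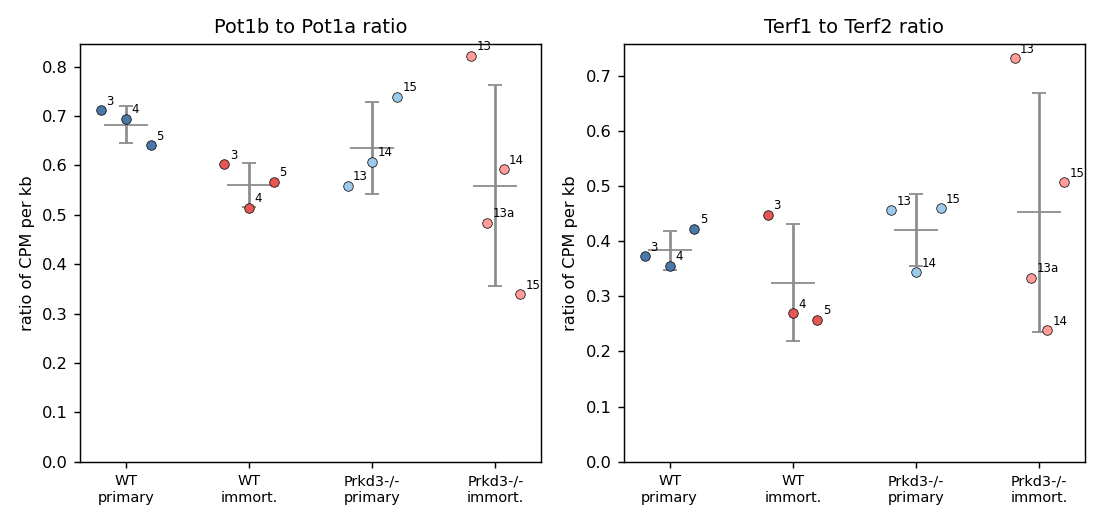
Ratio of CPM per kb (vertical axis, from 0) of Pot1b to Pot1a (left) and of Terf1 to Terf2 (right) in each library, by genotype and state; points are libraries with their clone or line names, and grey bars are the mean and SD. For both ratios the 4 Prkd3-/- lines spread wider than any other group, from 0.339 to 0.822 on the left.

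To see whether a gene moved with its chromosome, its log2 ratio in each line was set beside the median log2 ratio of all expressed genes on the same chromosome. In line 15 the median of the 798 genes of chromosome 6 was 0.54, the highest median of any chromosome that carries a member (the next was 0.27, of chromosome X in the same line), and the highest Pot1a ratio, 1.10, was in that line. On chromosome 8, with 846 genes for Terf2, the medians were 0.19 in WT line 4 and 0.13, 0.23 and 0.24 in Prkd3-/- lines 13a, 14 and 15, against -0.01 to 0.05 in WT lines 3 and 5 and in line 13. In those 4 lines the ratios were 0.16 to 0.65 for Terf2, 0.40 to 0.76 for Acd and 0.12 to 0.92 for Terf2ip, while in the other 3 lines they were 0.10 to 0.49, 0.02 to 0.16 and -0.09 to 0.34. These 3 genes share a chromosome and so are not independent observations, and the part of the chromosome-wide shift in their levels was not tested. For Tert the chromosome 13 median lay between -0.08 and 0.07 in all 7 lines. The median of genes within 5 Mb of Tert lay between -0.11 (WT line 5) and 0.25 (line 13). The chromosome X median was -0.03 in line 13, where Dkc1 was at 2.01. For Pot1a, Tert and Dkc1 the part of a chromosome-wide shift was not tested either.

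**Figure D5:**
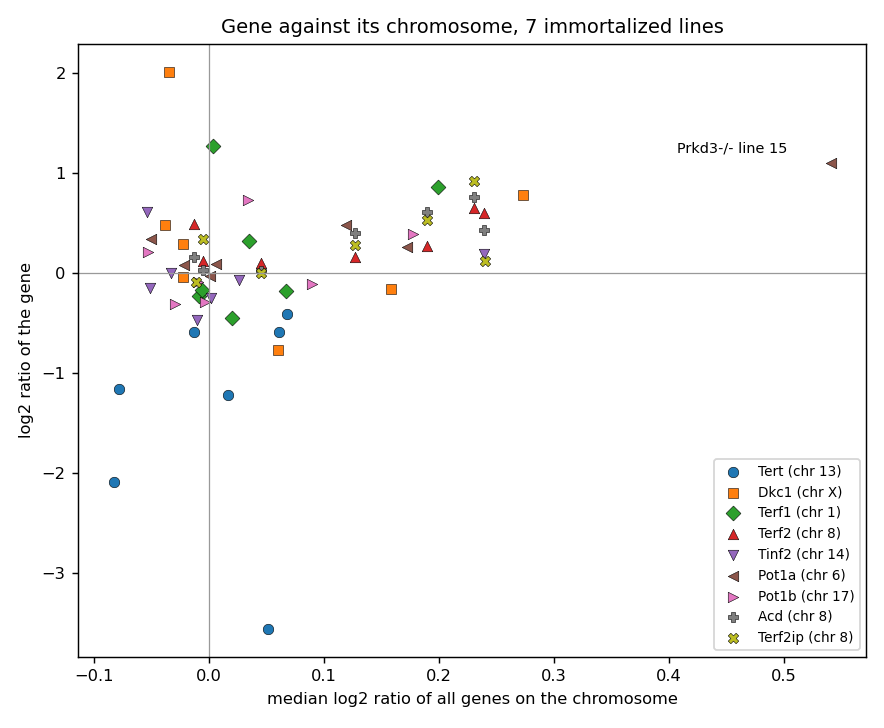
Log2 ratio of each gene (vertical axis) against the median log2 ratio of all expressed genes of its chromosome (horizontal axis), each computed from CPM with 0.1 added, against the primary libraries of its genotype; each symbol is a gene in 1 of the 7 immortalized lines. Pot1a in Prkd3-/- line 15 lies far right, at 0.54 and 1.10, and Tert spreads downwards near a chromosome median of 0.

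Genotype was compared next, with the limit that the genotypes were deposited as separate tables, so that genotype and set of libraries cannot be told apart. No member passed the interaction of state and genotype (edgeR adjusted p = 1 for all 9; 0.0% of all genes passed 0.05, with 0 of 9 members and 841 genes of all at an unadjusted p under 0.05, and DESeq2 passed 37 genes of all). The interaction estimate for Tert was -0.30 with a 95% confidence interval from -2.17 to 1.58, and without line 13 it was 0.06. Among primary libraries no member passed at adjusted p under 0.01 and |Log2FC| of at least 1 (0.765% of all genes) or at 0.05 (6.04%). Terf2 and Pot1b lay lower in Prkd3-/- without overlap, 2 of 9 against 18.8% of all genes, and none lay higher, against 15.5%. Dkc1 had a Log2FC of 0.33 (standard error 0.14, edgeR adjusted p = 0.208), and without the macrophage-rich clone 14 it had 0.45 with an adjusted p of 0.00622, where 32.1% of all genes passed 0.05. Among immortalized lines none passed either rule (0.0406% and 0.066% of all genes), Pot1a lay higher in Prkd3-/- without overlap (1 of 9 against 4.51%) and none lay lower (4.19%). The Dkc1 difference there was the largest of the members, with a Log2FC of 1.11 and a 95% confidence interval from -0.37 to 2.58, and without line 13 it was 0.41.

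Other telomere genes were taken from a list of 50, of which 44 were tested. In WT 1 of the 44 passed an adjusted p of 0.05, higher, and none lower, against 5.27% of all genes, and in Prkd3-/- none passed, while 5 and 3 had an unadjusted p under 0.05, against 19.7% and 6.56% of all genes. The gene was Naf1, an assembly factor that brings dyskerin to box H/ACA RNAs such as Terc. It was at 19.4, 21.5 and 19.2 CPM in WT primary clones 3, 4 and 5 and at 29.3, 31.9 and 27.3 CPM in the lines (Log2FC 0.56, standard error 0.10, edgeR adjusted p = 0.0351). In Prkd3-/- it was at 17.6, 17.6 and 19.9 CPM before and at 56.9, 36.4, 21.1 and 45.6 CPM in lines 13, 13a, 14 and 15, higher in 4 of 4 lines without overlap (Log2FC 1.10, standard error 0.33, edgeR adjusted p = 0.609). Of the 44 genes 3 lay higher without overlap in Prkd3-/-, against 4.19% of all genes. Telomerase assembly genes had a median Log2FC of 0.17 in WT (11 of 13 tested positive) and 0.36 in Prkd3-/- (11 of 13), beside medians of 0.04 and 0.07 and 54.2% and 56.9% positive over all genes. Their summed level was 597.4 CPM in line 13 and 268.2 to 341.9 CPM in the other Prkd3-/- lines. The CST complex and its primase partners, which fill in the complementary strand, had medians of -0.10 (1 of 7 positive) and 0.46 (6 of 7). The 10 proliferation genes had medians of the same signs, -0.45 (0 of 10 positive) and 0.63 (10 of 10), and their part was not tested. End processing genes had medians of 0.00 and 0.32 over 14, and genes of recombination-based maintenance 0.05 and 0.10 over 8. Of 7 meiotic and embryonic telomere genes 2 were tested, and Terb2, Zscan4c, Zscan4d and Zscan4f had 0 counts in all 13 libraries. Terc itself had between 0 and 10 read pairs per library; its transcript lacks a long poly-A tail, so poly-A libraries do not measure its level.

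The genes whose pattern over the 13 libraries came nearest to each member were found by the root mean square difference of standardized log2 CPM among 15798 genes. For Tert these were Dpysl4 (0.23) and Mamdc2 (0.24), for Dkc1 Ddx27 (0.19) and Gm5611 (0.20), and for Terf1 Ttll4 (0.23) and Mir6904 (0.24), beside a median of 1.40 to 1.43 over all genes. Ddx27 encodes an RNA helicase of ribosome assembly. The nearest were Rp9 (0.30) and Pan2 (0.38) for Terf2, Ppp1ccb (0.16) and Fastkd3 (0.26) for Tinf2, Mphosph8 (0.33) and Gm30054 (0.34) for Pot1a, and Gm15773 (0.38) and Cnot10 (0.44) for Pot1b. For Acd they were Pcdhb21 (0.38) and Gas8 (0.39) and for Terf2ip Smpd3 (0.31) and R3hdm4 (0.35). None of these genes was itself a member.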

How the data were processed

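Poly-A RNA of 13 MEF libraries was sequenced in pairs of 100 bases. Per the submitters' processing notes the authors used FastQC 0.12.0, STAR 2.7.10a, SAMtools 1.18 and featureCounts of Subread 2.0.6 with mm10 and GRCm38, and deposited raw counts of read pairs per gene with exon lengths in 2 tables. The header of the WT table shows counting without strand, with each pair given to every gene it overlaps, on Ensembl release 102. No such header stands in the Prkd3-/- table. The deposited counts of all mitochondrial genes are 0.

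Symbols were matched for 55141 of 55487 genes. Levels are CPM scaled by TMM over all 13 libraries, and CPM per kb divides by exon length. Each comparison was fitted alone with edgeR 4.0.16 in R 4.3.3 (quasi-likelihood, TMM, filterByExpr, robust, Benjamini-Hochberg over all genes tested), on samples grouped by genotype and state. The thresholds were an adjusted p under 0.01 with |Log2FC| of at least 1 and, as a second count, an adjusted p under 0.05. The ratios used an exact permutation test with a prior count of 1. Alternatives were a joint fit of all libraries, the clone as a block, lines 13 and 13a summed, DESeq2 1.42.0 as the test, other scalings (DESeq2 size factors or the library total), other filters (none, or a minimum of 10 counts in each library) and each library left out; limma 3.58.1 with a weight per state was added after seeing the data. The fits were run on simulated counts drawn with the same spread for every gene and library. This run cannot check the fits under the unequal spreads of the groups. A count of 3, the floor of detection, equals 0.0277 to 0.0842 CPM and covers counting error only. Members and lists were chosen with earlier results of these data known. Named were all members, other telomere genes with adjusted p under 0.05 in a state comparison, Terc, the 2 nearest patterns of each member, and genes with shared exons. Clone numbers come from the sample names, and libraries with the same number form a pair since the line was grown from that culture. This pairing was used only in the clone block and in a sign-flip test of the ratios. The main fits and the permutation test did not use it. Deviations of paired libraries from their group means correlated at -0.08, 0.04 and -0.09 in WT and at -0.31 to 0.12 in Prkd3-/-. P-values measure the spread between cultures, with lines 13 and 13a, of the same clone number, counted as separate cultures. The edgeR fits pool this spread over groups, although WT primary libraries differed far less than Prkd3-/- lines.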

Additional observations from a re-analysis of the deposited data

How the results depend on the processing

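In all alternatives run, 0 members passed an adjusted p under 0.01 with |Log2FC| of at least 1, while the counts of all genes moved. In WT, where edgeR called 361 genes, DESeq2 called 1361, a filter of at least 10 counts in every library 157, limma with a weight per state 198, the joint fit 0 and the replicate block 0, and leaving out each library gave 48 to 743. Members under an adjusted p of 0.05 in WT numbered 1 with DESeq2 and 1 with library size alone, in place of 0, and 0 to 1 with each library left out. The clone block put no member under 0.05 (Tert adjusted p = 0.187 in WT and 0.992 in Prkd3-/-). In Prkd3-/-, where edgeR called 0, DESeq2 called 190 genes and the joint fit 1. For the interaction DESeq2 called 37 and leaving out each library gave 0 to 2. Between genotypes, primary libraries gave 156 genes with edgeR, 836 with DESeq2, 335 without a filter, 88 with at least 10 counts in every library and 2 to 1456 with each library left out, which put 0 to 1 members under 0.05. Immortalized libraries gave 8, with 178 by DESeq2 and 0 to 10 with each library left out.

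Library size alone moved the median Log2FC of all genes in WT from 0.04 to -0.10, in the interaction from 0.06 to 0.18 and between immortalized lines from 0.06 to 0.21, and it turned the WT Log2FC of Dkc1 to -0.002 and of Pot1a to -0.0704, the primary genotype difference of Acd to 0.0073 and the immortalized one of Terf2ip to 0.13. Summing lines 13 and 13a turned Tinf2 in Prkd3-/- to -0.0017 and Terf2ip between immortalized lines to 0.0385, and omitting the filter turned the Terf2ip interaction to -0.0321. With each library left out, Log2FC in WT ranged from -0.0862 to 0.27 for Dkc1 and from -0.33 to 0.10 for Terf1, in Prkd3-/- from -0.0904 to 0.28 for Tinf2, in the interaction from -0.71 to 0.0578 for Tert and from -0.21 to 0.14 for Terf2ip, between primary libraries from -0.0877 to 0.18 for Terf1, -0.15 to 0.0259 for Pot1a and -0.0736 to 0.0441 for Acd, and between immortalized lines from -0.27 to 0.092 for Terf2ip. The cause of these reversals was not tested. Of 351 values of single members with a library left out, 329 kept their direction and 22 turned, and of 315 under other settings 308 kept theirs and 7 turned. In each set 2 values went under an adjusted p of 0.05, namely Tert in WT without line 3 (0.0105), with DESeq2 (0.00217) and with library size alone (0.0413), and Dkc1 between primary libraries without clone 14 (0.00622). The Pot1b to Pot1a ratio difference was -0.31 with lines 13 and 13a averaged and ranged from -0.37 to -0.16 with each library left out, and over the 6 paired clones a sign-flip test gave an exact p of 0.0938.

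Tert rests on 17 to 556 read pairs per library and Pot1b on 149 to 457, the lowest counts among the 9. Replicates differed beyond sampling noise by a coefficient of variation of 3.69 to 4.92% among WT primary libraries and 20.5 to 26.2% among WT lines. It was 10.2 to 22.9% among Prkd3-/- primary libraries and 27.0 to 53.3% among Prkd3-/- lines.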

Other observations

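Tep1, which encodes a protein of the telomerase and vault particles, and the other genes named here were chosen after their values were seen. It was at 66.2 to 71.0 CPM in WT primary libraries, 64.6 to 76.3 CPM in WT lines and 41.3 to 52.5 CPM in Prkd3-/- primary libraries. In Prkd3-/- 2 of the 44 other telomere genes tested lay lower without overlap, against 5.26% of all genes. Tep1 was 1 of them, at 7.62, 12.4, 33.2 and 9.33 CPM in lines 13, 13a, 14 and 15, below every other library. The Log2FC in Prkd3-/- was -1.61 (standard error 0.51, edgeR adjusted p = 0.65) beside 0.07 in WT (adjusted p = 0.732), and the interaction did not pass (adjusted p = 1). Among primary libraries 3 of the 44 other telomere genes passed an adjusted p of 0.05, a share near the 6.04% of all genes. Tep1 was lower in Prkd3-/- (Log2FC -0.51, edgeR adjusted p = 0.039), and Ruvbl2 (0.41, adjusted p = 0.0302) and Nhp2 (0.56, adjusted p = 0.0432), a dyskerin partner, were higher.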
